A study of Rattus norvegicus with 6 samples.

Results

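The Wnt ligands, their Frizzled and LRP receptors, their secreted antagonists and the main signalling proteins behind the receptors were described in hearts of rats given AACO or water. The set was chosen by gene name on the array: the numbered Wnt, Fzd and Dvl genes, Sfrp1 to Sfrp5, Dkk1, Dkk2 and Dkk4, Lrp5, Lrp6, the Axin and Tcf7 genes, Lef1, Porcn, Wif1, Frzb and Ctnnb1. It held 47 genes, read by 56 probes, of 26316 genes on the array. AACO is a formula of Chinese medicine, and the labels do not say what its letters stand for. Each group held 3 whole-heart samples, labelled Rattus norvegicus, taken after a daily dose of 0.386 µg/g AACO solution or of double-distilled water for 8 weeks. Both groups had TAC, by which heart research usually means transverse aortic constriction, an operation that loads the left ventricle and is a model of heart failure. Mice are named in the series text, but the sample labels and the genome build in the array files are those of rat. Strain, sex and age were not given in the sources used here, and no unoperated group was analysed here.

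Wnt proteins are secreted lipid-modified ligands that bind a Frizzled receptor together with the co-receptor LRP5 or LRP6. In the canonical branch this stops a complex built on Axin from destroying beta-catenin (Ctnnb1), which then acts in the nucleus with the TCF and LEF transcription factors. Other branches act through Frizzled receptors on cell polarity and calcium without beta-catenin. Secreted frizzled-related proteins (Sfrp genes, Frzb) and Wif1 bind Wnt ligands outside the cell, and Dickkopf proteins (Dkk genes) block LRP5 and LRP6. In the heart the pathway is active during development, is low in the healthy adult and is known to be engaged again after injury and pressure overload.

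Each array gave 1 level per probe, the log2 of its signal relative to the 75th percentile of that array, so that a level of −1 is 1 log2 unit below that percentile. On the AACO arrays 70.9% to 72.4% of spots were well above background, against 66.0% to 68.7% on the control arrays, and the median signal was 212 to 261 against 143 to 204. No spot was saturated. All AACO arrays lay on 1 slide and all control arrays on another, with a scan day of their own, so that slide, scan and treatment cannot be told apart in any comparison here. Pairs of arrays within a group correlated at r of 0.987 to 0.994 over the genes tested, and pairs across groups at 0.977 to 0.988. Nothing in the labels ties a sample to a named animal, and p-values therefore cover only the spread among the 6 samples. Whole tissue was measured, so fewer cells of a type and less RNA per cell cannot be told apart.

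Of the 47 genes, 30 passed the filter (signal well above background on 3 or more of the 6 arrays) and were tested, and 4 of them differed between the groups: 2 receptors, Fzd8 and Lrp5, rose with AACO, while the receptor Fzd7 and the antagonist Sfrp5 fell. No ligand and no cytoplasmic or nuclear member passed the test on its brightest probe. Over the whole array 6.33% of the 17536 genes tested rose and 4.84% fell, 11.2% in all (limma, adjusted p under 0.05). The 4 of 30 is close to that share, so the count by itself is no result about the set. The median log2 fold change of the 30 was 0.07, against 0.04 over all genes tested, with 20 above 0 and 10 below. In 11 of the 30, or 36.7%, no AACO value fell within the control range or the reverse, against 37.4% of all genes tested. An unadjusted p under 0.05 was found for 8 of the 30, against 30.8% of all genes. By role, 0 of 9 tested ligands and acyltransferase differed, 3 of 9 receptors, 1 of 5 antagonists and 0 of 7 cytoplasmic and nuclear members.

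**Figure D1:**
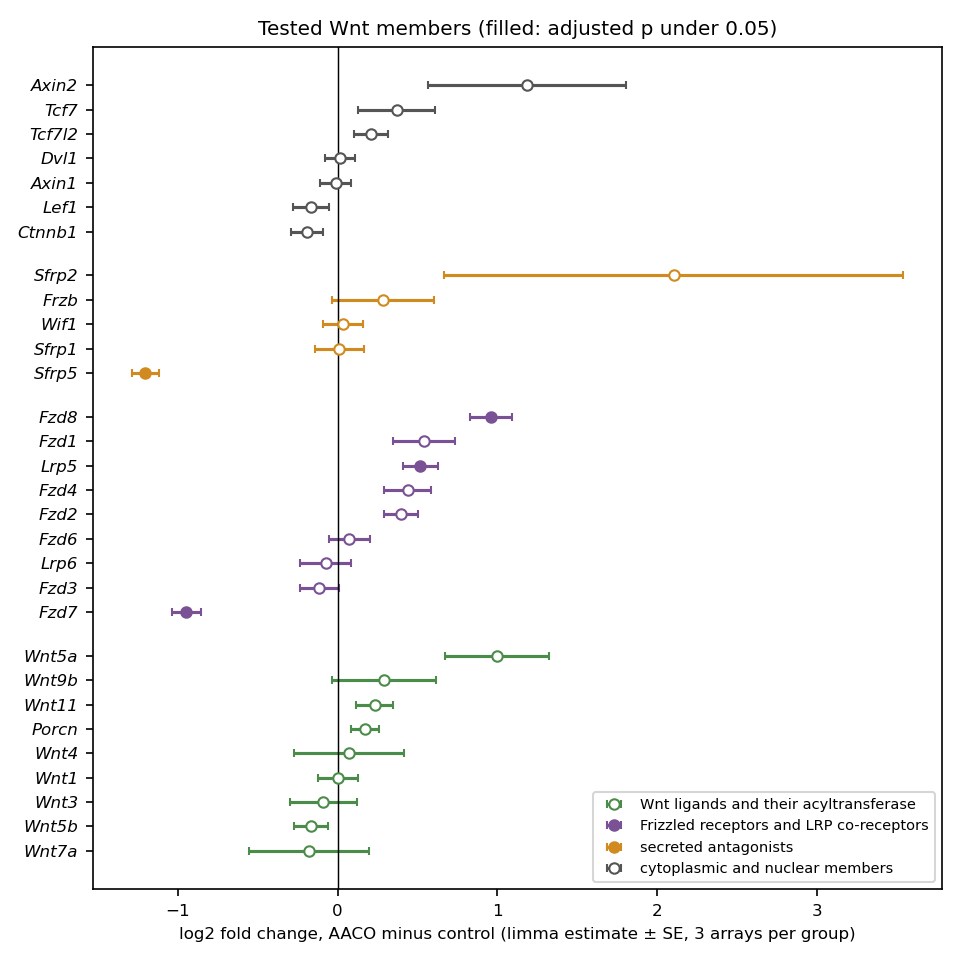
Log2 fold change (AACO minus control) of the 30 tested members, grouped by role. Points are limma's estimates from 3 arrays per group, bars their standard error, and filled points passed an adjusted p of 0.05. Sfrp5 and Fzd7 lie left of 0, Fzd8 and Lrp5 right of it, and the ligands in green all have unfilled points.

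The ligand group covers 18 Wnt genes and Porcn, the acyltransferase that attaches the lipid a Wnt needs to leave the cell. Wnt2 was not analysed here. Only 9 of the 19 were bright enough to test, and 6 of the other 10 were above background on no array. No ligand differed with AACO in limma's test (0 adjusted, 1 at an unadjusted p under 0.05), and the median log2 fold change of the 9 was 0.07. Wnt5a, the best known ligand of the branch without beta-catenin, came nearest. Its level was −4.26, −4.66 and −5.22 in AACO replicates 1, 2 and 3 and −6.10, −5.15 and −5.88 in control replicates 1, 2 and 3. The highest control value lay just above the lowest AACO value, so the groups overlapped. A log2 fold change of 0.996 ± 0.33 (SE) followed, with an adjusted p of 0.0985. With another background correction (normexp, with an offset of 50 added to each signal) that difference was −0.0093. The probe's levels lay far below the 75th percentile, and the part of the offset in this was not tested.

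Wnt11, a ligand needed for heart formation in the embryo, was second. Its level was −1.19, −1.19 and −1.50 in AACO replicates 1, 2 and 3 and −1.49, −1.54 and −1.54 in control replicates 1, 2 and 3. AACO replicates 1 and 2 were higher than every control array, while AACO replicate 3 lay among the controls. This gave a log2 fold change of 0.23 ± 0.12 (SE), with an adjusted p of 0.237, and a second Wnt11 probe gave 0.30 ± 0.13. Porcn (0.17 ± 0.09 (SE), adjusted p 0.242) was higher on every AACO array than on any control array, and Wnt5b, a close relative of Wnt5a, was lower on every AACO array (−0.17 ± 0.11 (SE), adjusted p 0.326). Neither passed the test. The other 5 tested ligands had log2 fold changes between −0.18 for Wnt7a and 0.29 for Wnt9b, and their groups overlapped.

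Receptors held 3 of the 4 genes that differed. Of 11 Frizzled and LRP genes 9 were tested, 2 rose and 1 fell, where 11.2% of all genes tested differed. The groups did not overlap for 6 of the 9, against 37.4% of all genes tested. The median log2 fold change of the 9 was 0.40. Whether receptors differed more often than other genes was not tested. Fzd10 was not analysed here. Fzd7, a receptor of both branches with a role in heart muscle differentiation from stem cells, fell. Its level was −4.67, −4.68 and −4.63 in AACO replicates 1, 2 and 3 and −3.63, −3.74 and −3.77 in control replicates 1, 2 and 3. The AACO values lay close together and all below the lowest control value. This was a log2 fold change of −0.95 ± 0.09 (SE), a 1.93-fold lower level, with an adjusted p of 0.00714 and a 95% interval of −1.16 to −0.73.

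Fzd8, a receptor that works with LRP6 in the canonical branch, moved the other way. Its level was −2.29, −2.40 and −2.68 in AACO replicates 1, 2 and 3 and −3.35, −3.51 and −3.40 in control replicates 1, 2 and 3. Every AACO array was higher than every control array, with AACO replicate 3 the lowest of the AACO values. The log2 fold change was 0.96 ± 0.13 (SE), 1.94-fold, with an adjusted p of 0.0124 and a 95% interval of 0.65 to 1.27. Without AACO replicate 2 it was 0.93 with an adjusted p of 0.0632.

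Lrp5, a co-receptor of the canonical branch, rose by less. Its level was 0.21, 0.48 and 0.22 in AACO replicates 1, 2 and 3 and −0.26, −0.15 and −0.23 in control replicates 1, 2 and 3. The AACO arrays were all above the control arrays, and AACO replicate 2 stood highest. The log2 fold change was 0.52 ± 0.11 (SE), 1.43-fold, with an adjusted p of 0.0358 and a 95% interval of 0.25 to 0.78. This call was the least stable of the 4 and held in 9 of 17 alternative settings. The adjusted p was 0.0869 without AACO replicate 1, 0.109 without AACO replicate 2, and 0.0763, 0.0671 and 0.102 without control replicates 1, 2 and 3. Lrp6, the co-receptor that acts beside Lrp5, had −0.07 ± 0.16 (SE) with overlapping groups (adjusted p 0.787).

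Of the other Frizzled genes, Fzd2, Fzd1 and Fzd4 were higher on every AACO array without passing the test. Fzd2, a receptor for Wnt5a among others, stood at −3.38, −3.50 and −3.54 with AACO and −3.95, −3.93 and −3.74 in controls, a difference of 0.40 ± 0.11 (SE) and an adjusted p of 0.0605. Fzd1, of the same subfamily as Fzd2 and Fzd7, stood at 0.64, 0.24 and −0.07 with AACO and −0.13, −0.31 and −0.38 in controls, a difference of 0.54 ± 0.19 (SE) and an adjusted p of 0.117. Fzd4, the receptor of Norrin in growing retinal vessels, stood at −4.67, −4.97 and −5.04 with AACO and −5.14, −5.36 and −5.50 in controls, a difference of 0.44 ± 0.15 (SE) and an adjusted p of 0.103. AACO replicate 1 had the highest AACO value for all 3. Fzd3, a receptor of the polarity branch, and Fzd6, its close relative, had −0.11 ± 0.12 (SE) and 0.07 ± 0.13 (SE) with overlapping groups. Fzd5 was above background on no array, and Fzd9 on 1 AACO array and no control array.

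**Figure D2:**
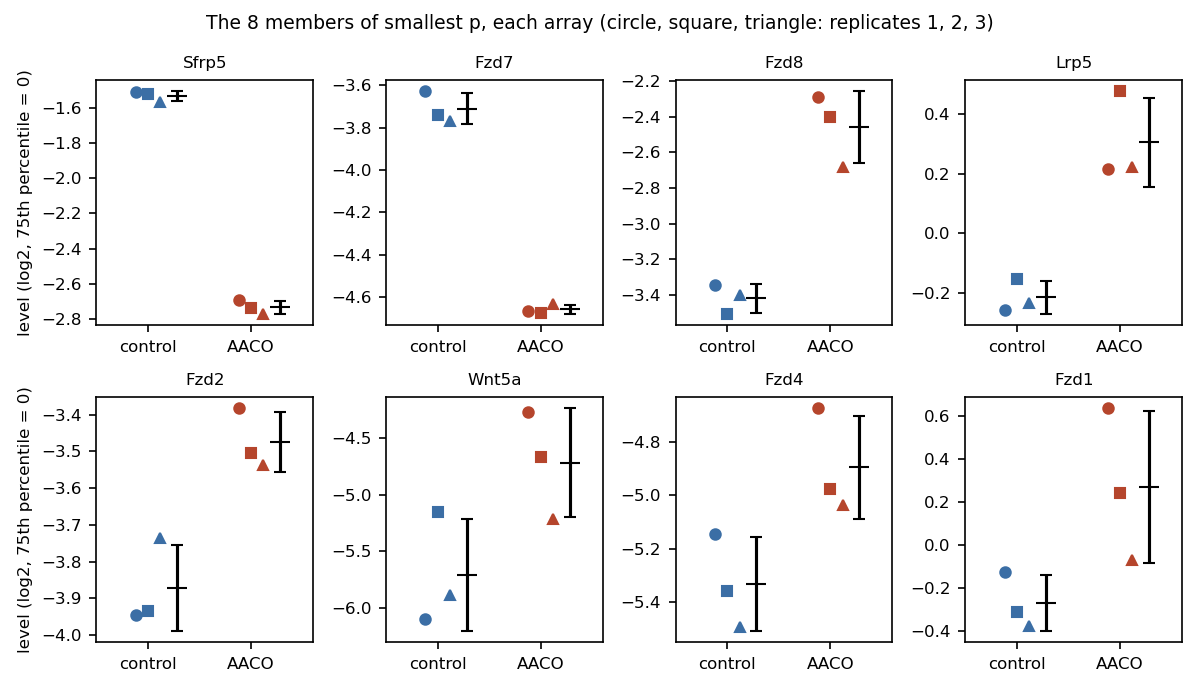
Level (log2 relative to the array's 75th percentile) on each array of the 8 tested members of smallest p. Points are single arrays, bars the group mean ± SD of 3 arrays, and each panel has its own vertical scale. The groups do not overlap except for Wnt5a, where control replicate 2 at −5.15 lies above AACO replicate 3 at −5.22.

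The probes of the 4 members that differed lie in build rn4 at chr9:57930037-57930096 (Fzd7), chr17:65971481-65971540 (Fzd8), chr1:206102758-206102817 (Lrp5) and chr1:248655892-248655951 (Sfrp5), as the array files give them. No annotation of that build was used here, so the exon or UTR they fall in is not stated. To show the promoters of the genes that moved in opposite directions, the 250 bases before the RefSeq start are given for those found in the table, in build GRCr8, 5′ to 3′ on the gene's strand. Axin2, a feedback inhibitor and standard readout of the canonical branch, is shown with them because it held the only match among the members found there to CTTTGAT, a core motif bound by TCF and LEF factors, which is in capitals.
Fzd7 (chr9:68425288-68425537, plus strand): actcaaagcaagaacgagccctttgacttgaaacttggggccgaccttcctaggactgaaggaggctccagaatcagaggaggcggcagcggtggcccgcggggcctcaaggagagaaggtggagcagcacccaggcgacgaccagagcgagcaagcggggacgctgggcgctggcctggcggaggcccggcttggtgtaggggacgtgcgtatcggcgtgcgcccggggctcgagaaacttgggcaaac
Fzd8 (chr17:62009744-62009993, plus strand): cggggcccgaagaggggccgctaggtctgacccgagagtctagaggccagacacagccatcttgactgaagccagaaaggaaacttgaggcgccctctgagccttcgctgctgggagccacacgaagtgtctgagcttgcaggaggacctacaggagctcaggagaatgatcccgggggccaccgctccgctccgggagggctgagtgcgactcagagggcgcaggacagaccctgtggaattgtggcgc
Sfrp5 (chr1:250960513-250960762, minus strand): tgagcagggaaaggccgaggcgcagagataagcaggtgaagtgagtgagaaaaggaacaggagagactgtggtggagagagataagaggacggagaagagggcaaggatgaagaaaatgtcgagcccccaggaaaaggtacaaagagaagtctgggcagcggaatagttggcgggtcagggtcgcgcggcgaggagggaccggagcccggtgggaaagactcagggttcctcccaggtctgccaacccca
Axin2 (chr10:94398535-94398784, plus strand): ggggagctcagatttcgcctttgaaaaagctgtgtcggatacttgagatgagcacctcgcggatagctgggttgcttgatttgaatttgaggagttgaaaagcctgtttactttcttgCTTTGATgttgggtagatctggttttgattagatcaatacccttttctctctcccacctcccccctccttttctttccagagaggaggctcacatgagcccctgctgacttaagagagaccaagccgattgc
Of the 47 members 34 had a promoter in the table. CTTTGAT, searched on both strands as were the other motifs, was in 1 of the 34 and in 2.97% of the 21851 protein-coding promoters of the table. CTTTGTT, the other common form of the core, was in 1 of 34 (Dkk1), against 4.46% of all. The GC box core GGGCGG was in 19 of 34, against 38.9% of all. The members' promoters had a median GC content of 64.2% and a median of 20.5 CpG dinucleotides, against 54% and 8 over all promoters. These are descriptions of the window printed, and a match is not a bound site.

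Among the secreted antagonists, Sfrp5 fell and the other 4 tested did not pass. Sfrp5 is a secreted frizzled-related protein known as an antagonist of Wnt5a. Its brighter probe, which represented the gene, read −2.70, −2.74 and −2.77 in AACO replicates 1, 2 and 3 and −1.51, −1.52 and −1.56 in control replicates 1, 2 and 3. The arrays of a group lay close together, and the groups did not overlap. On this probe the log2 fold change was −1.20 ± 0.09 (SE), a 2.3-fold lower level, with an adjusted p of 0.00601 and a 95% interval of −1.41 to −0.998. A second probe of Sfrp5 went the other way. It read −4.73, −4.91 and −5.96 in AACO replicates 1, 2 and 3 and −8.33, −6.82 and −7.71 in control replicates 1, 2 and 3. It was well above background on all 3 AACO arrays and on no control array, which puts its AACO level at least 3.16-fold higher. It met the filter through the AACO arrays alone, so this is given as a description, with no test. The mean of both probes gave 0.61 with an adjusted p of 0.156. The probes thus read in opposite directions, and which probe follows the Sfrp5 transcript was not tested. The array files place both Sfrp5 probes on the plus strand of rn4, while the promoter printed above lies on the minus strand of GRCr8. For the other members with a promoter in the table, probe and promoter had the same strand. Within rn4 the dimmer probe starts later in its transcript (base 1929 against 1095) and lies farther along the plus strand. Both probes thus run the same way there. Whether the builds or the probes account for the other strand in GRCr8 was not tested, so the call for Sfrp5 keeps this limit.

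Both Sfrp5 probes are 60 bases long. The brighter one starts at base 1095 of its transcript and has a GC content of 45%, and the dimmer one starts at base 1929, at chr1:248656726-248656785 of rn4, with a GC content of 35%. Their first 30 bases are given with those of 2 other genes whose probes read differently.
Sfrp5, brighter probe: taaggagatgaagtttgcagtcaaattcat
Sfrp5, dimmer probe: gctaaatccccaaccccaaaagtttttaat
Fzd6, brighter probe: gaatgctacagacacattgtgttgtatctt
Fzd6, dimmer probe: gttcgctcagcttccggaactaggaaagag
Tcf7l2, brighter probe: tgtacagtatctgtagcatgccgttctgga
Tcf7l2, dimmer probe: tggctggtctgcacgggataactatggaaa
In all, 8 members had more than 1 probe and 5 had more than 1 tested. The sign differed between probes for 3 of the 5, Fzd6, Lrp6 and Sfrp5. For Fzd6 the dimmer probe gave −0.75 ± 0.31 (adjusted p 0.157 over the 20112 probes tested) against 0.07 on the brighter one. For Lrp6 the second probe gave 0.11 ± 0.11. For Tcf7l2, a nuclear partner of beta-catenin, both were above 0, at 0.21 ± 0.11 (SE) on the brighter probe and 0.76 ± 0.17 on the dimmer, whose adjusted p was 0.0377 over probes. Over all probes 11.1% passed that test.

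**Figure D3:**
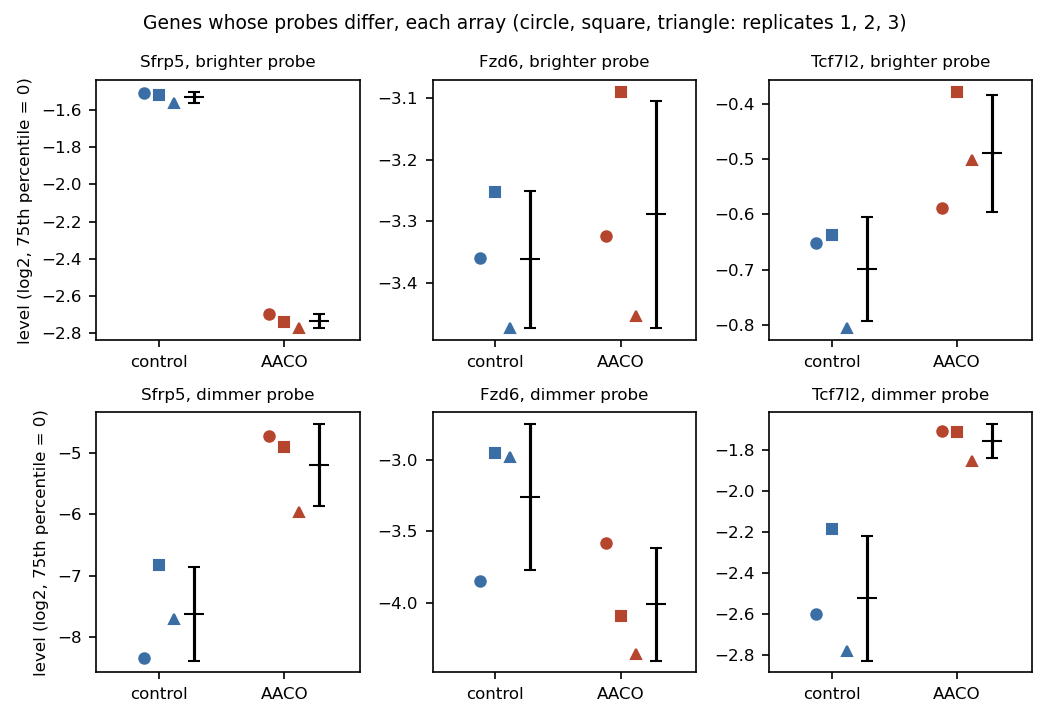
Level (log2 relative to the array's 75th percentile) on each array for the brighter and the dimmer probe of Sfrp5, Fzd6 and Tcf7l2. Points are single arrays and bars the mean ± SD of 3 arrays, with a vertical scale for each panel. AACO lies below control on the brighter Sfrp5 probe and above it on the dimmer one.

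Sfrp1 and Frzb, which bind Wnt ligands like Sfrp5, and Wif1, a further Wnt-binding inhibitor, had log2 fold changes of 0.01, 0.29 and 0.03 with overlapping groups. Sfrp2, which is made by fibroblasts in injured heart, spread most. Its level was −2.93, −2.42 and −6.72 in AACO replicates 1, 2 and 3 and −6.87, −7.74 and −3.76 in control replicates 1, 2 and 3. Each group held arrays at both ends of this range, and the fold change of 2.10 ± 1.44 (SE) did not pass (adjusted p 0.362). Dkk1 and Dkk4 were above background on no array, and Dkk2 on 1 control array.

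A set of 5 members stood at least 1 log2 unit higher on both AACO replicate 1 and AACO replicate 2 than on AACO replicate 3: the ligands Wnt2b, Wnt6 and Wnt9a and the antagonists Sfrp2 and Sfrp4. This grouping was made after their values were seen. Of all genes with a value 1.84% did so, and of the genes tested 1.04%, among them 1 of the 30 tested members, Sfrp2. Wnt2b stood at −4.75, −4.19 and −6.53 with AACO and −7.11, −6.01 and −5.66 in controls. Wnt6 stood at −5.42, −5.62 and −7.26 with AACO and −7.88, −6.97 and −7.72 in controls. Wnt9a stood at −5.81, −5.94 and −7.78 with AACO and −7.63, −7.56 and −7.59 in controls. Each of these ligands was well above background on AACO replicates 1 and 2 only. Against controls set no lower than the dimmest signal above background, the AACO mean was 2.15-fold, 1.73-fold and 1.31-fold higher, untested. That mean includes AACO replicate 3, which was not above background, so these folds are no bounds. For Wnt2b the fold is the plain difference of the group means (1.11 in log2). AACO replicate 3 lay within or below the range of the controls. Sfrp4 was above background on no array.

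Of 8 atrial markers, Myl7 and Sln had a like pattern over the same arrays and most of the others did not. Myl7, the atrial myosin light chain, stood at 4.83, 6.29 and −1.06 with AACO and −2.31, −2.90 and −1.51 in controls (adjusted p 0.0957). Sln, the atrial calcium pump inhibitor sarcolipin, stood at 1.39, 3.87 and −0.41 with AACO and −1.70, −0.41 and −0.59 in controls (adjusted p 0.159). The other markers were looked at after their values were seen. Myl4, the atrial essential light chain, stood at 6.84, 6.78 and 6.80 with AACO and 6.83, 6.95 and 6.63 in controls, with no such pattern. Nppa, which codes for atrial natriuretic peptide, was lowest on AACO replicate 1 (2.81, 5.51 and 5.86 with AACO and 4.96, 5.26 and 6.99 in controls), and Gja5 and Kcna5 had log2 fold changes of −0.13 and −0.63. Nr2f2, a transcription factor of atrial muscle and veins, was higher on AACO replicates 1 and 2 than on the other arrays (−0.79, −0.95 and −1.68 with AACO and −1.85, −1.55 and −1.70 in controls), and Bmp10 was well above background on AACO replicate 2 only. The atrial list as a whole had 0 of 7 tested markers past the threshold (2 at an unadjusted p under 0.05). Its summed level on a linear scale ranged from 154 to 249 with AACO and from 146 to 228 in controls. On every array most of that sum came from Myl4 and Nppa, so it says little about the other markers. With the mean level of Myl7 and Sln as a covariate in limma's model, 0 members differed (3 at an unadjusted p under 0.05), as did 0 genes of the whole array (2264 at an unadjusted p under 0.05). The covariate itself was higher on every AACO array. In that fit Fzd7 had −0.90, Fzd8 0.74, Lrp5 0.37, Sfrp5 −1.23 and Sfrp2 −1.33. The part of atrial tissue in the levels of these members was not tested further.

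**Figure D4:**
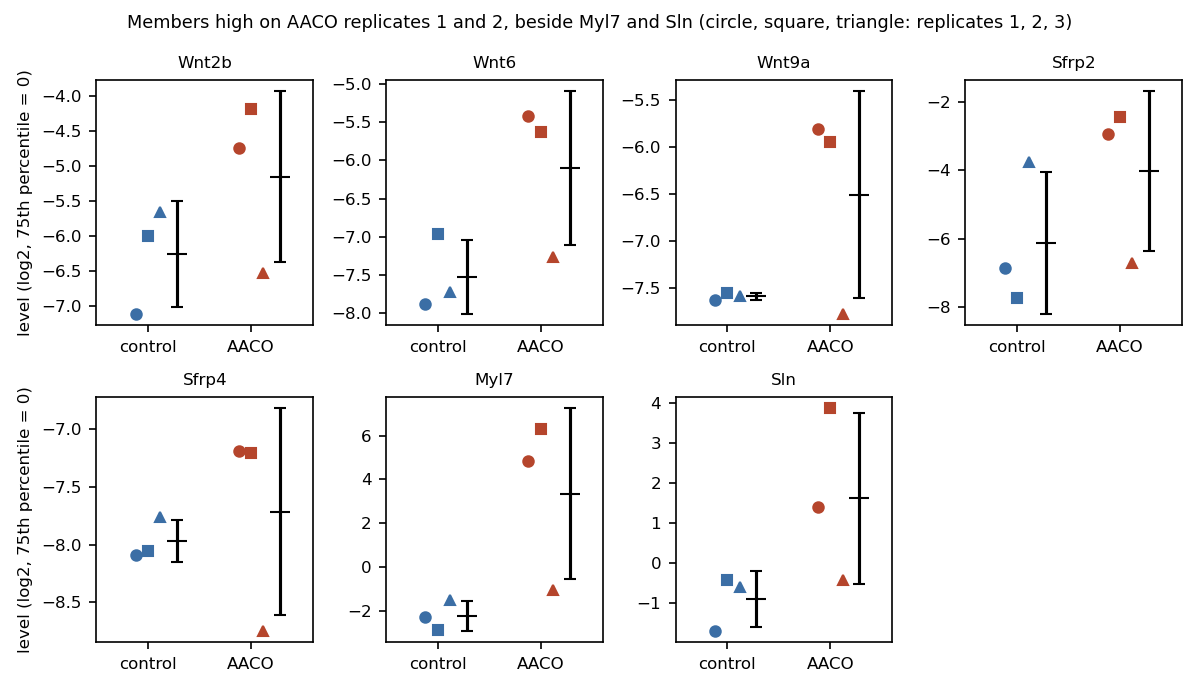
Level (log2 relative to the array's 75th percentile) on each array of 5 members, and of Myl7 and Sln. The 5 stood at least 1 log2 unit higher on AACO replicates 1 and 2 than on AACO replicate 3. Sfrp4 was above background on no array. Points are single arrays and bars the mean ± SD of 3 arrays, with a vertical scale for each panel. AACO replicate 3 (triangle) lies near the control arrays in the panels of Wnt6 and Sln, and below them for Wnt9a and Sfrp4.

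None of the 7 tested cytoplasmic and nuclear members differed (0 by limma, and 0 at an unadjusted p under 0.05), and their median log2 fold change was 0.02. Dvl2 and Tcf7l1 were not analysed here. Tcf7l2 was the first by p. Its brighter probe read −0.59, −0.38 and −0.50 in AACO replicates 1, 2 and 3 and −0.65, −0.64 and −0.81 in control replicates 1, 2 and 3. The AACO arrays were all higher by a small margin, and the log2 fold change of 0.21 ± 0.11 (SE) had an adjusted p of 0.232. Its dimmer probe, given above, had 0.76 ± 0.17 and passed in limma's test over probes (adjusted p 0.0377). Axin2 was next. Its level was −5.26, −6.11 and −6.67 in AACO replicates 1, 2 and 3 and −8.04, −5.91 and −7.66 in control replicates 1, 2 and 3. Control replicate 2 lay above AACO replicates 2 and 3, so the groups overlapped. The log2 fold change was 1.19 ± 0.62 (SE) with an adjusted p of 0.247, and the probe was well above background on 2 AACO arrays and 1 control array. With the other background correction the difference was −0.058.

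Ctnnb1, beta-catenin itself, was lower on every AACO array (−0.19 ± 0.10 (SE), adjusted p 0.25). Axin1, the scaffold of the destruction complex, and Dvl1, the adaptor that binds Frizzled, had −0.01 ± 0.10 (SE) and 0.02 ± 0.09 (SE). Lef1 and Tcf7 had −0.17 ± 0.11 (SE) and 0.37 ± 0.24 (SE), with overlapping groups. The 95% intervals were −0.25 to 0.22 for Axin1 and −0.21 to 0.24 for Dvl1.

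Other genes of the pathway were taken from 7 lists of 116 genes, of which 105 were on the array and 88 were tested. Among the 88, 8 rose and 6 fell, or 15.9%, against 11.2% of all genes tested, and their median log2 fold change was 0.09. Without the 1 gene that met the filter through the AACO arrays alone, Sost, 7 rose and 6 fell of 87, or 14.9%. Of Wnt secretion and handling, 1 of 3 tested genes differed. Gpc4, a glypican of the cell surface that binds growth factors, fell (1.68, 1.73 and 1.81 with AACO and 2.29, 2.26 and 2.20 in controls, a difference of −0.51 ± 0.09 (SE), adjusted p 0.023). R-spondins and their receptors, which keep Frizzled on the surface, had 0 of 2 (0 at an unadjusted p under 0.05): Rspo1 at 0.03 ± 0.18 (SE) and Lgr4 at −0.01 ± 0.11 (SE), whose signs turned with the scaling.

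Of 8 other secreted or membrane inhibitors, 1 rose and 1 fell. Sost, or sclerostin, a blocker of LRP5 and LRP6 known from bone, was well above background on all 3 AACO arrays and on no control array. Its level was −5.89, −6.15 and −6.19 with AACO and −7.02, −7.44 and −7.01 in controls, which is a bound of at least 1.70-fold (adjusted p 0.0149). It met the filter through the AACO arrays alone, so its place among the genes that rose is no support for a change, and with the other background correction the difference was −0.25. Dkkl1, a secreted relative of the Dickkopf family, fell (−2.73, −2.81 and −2.26 with AACO and −1.97, −1.69 and −1.53 in controls, a difference of −0.87 ± 0.19 (SE), adjusted p 0.0373). Sostdc1, a relative of Sost named after its values were seen, stood at −0.86, −0.69 and −2.60 with AACO and −3.73, −2.97 and −4.03 in controls and did not pass (2.19 ± 0.55 (SE), adjusted p 0.0532), with AACO replicate 3 between the other AACO arrays and the controls.

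Around beta-catenin, 3 of 24 destruction complex and Dishevelled-regulating genes rose and none fell. Cxxc4, which binds Dishevelled and dampens the canonical branch, stood at −0.86, −0.96 and −1.33 with AACO and −2.25, −2.30 and −2.21 in controls, a difference of 1.20 ± 0.14 (SE) and an adjusted p of 0.00964. Cxxc5, its relative, stood at 0.05, 0.17 and −0.28 with AACO and −0.81, −0.92 and −0.80 in controls, a difference of 0.82 ± 0.14 (SE) and an adjusted p of 0.0212. Neither gene's groups overlapped. Apc2, a relative of the scaffold APC, had 0.65 ± 0.15 (SE) (adjusted p 0.043), while its dimmer probe had −0.50 ± 0.23. Its call held in 6 of 17 alternatives, and the mean of its probes gave 0.07. The kinase Gsk3b had 0.10 ± 0.11 (SE), with overlapping groups.

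Among 20 nuclear cofactors, 2 rose. Bcl9, which joins beta-catenin to Pygopus, stood at −2.33, −2.25 and −2.55 with AACO and −3.66, −3.70 and −3.74 in controls. Every AACO array was more than 1 log2 unit above every control array. The difference was 1.32 ± 0.11 (SE), 2.5-fold, with an adjusted p of 0.00607, and a second probe gave 0.83 ± 0.19. The corepressor Ctbp2 had 0.54 ± 0.11 (SE) (adjusted p 0.0298). Of 13 planar cell polarity and non-canonical genes 2 fell: Daam1, a formin that acts with Dishevelled on the actin cytoskeleton, by 0.64 ± 0.12 (SE) (adjusted p 0.0262), and the cadherin Celsr3 by 0.98 ± 0.15 (SE) (adjusted p 0.0152), whose second probe had 0.16 ± 0.40.

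Of 18 tested textbook targets of the canonical branch, 2 rose and 2 fell. Myc, a growth-promoting transcription factor, had the largest change of these 18. Its level was −2.53, −2.08 and −2.18 with AACO and −0.90, −0.03 and −0.43 in controls. Every AACO array lay more than 1 log2 unit below every control array, and the difference was −1.81 ± 0.24 (SE), 3.5-fold lower, with an adjusted p of 0.0123. Plaur, the urokinase receptor, fell by 0.77 ± 0.15 (SE) (adjusted p 0.0278). Id2, an inhibitor of basic helix-loop-helix factors, had 0.71 ± 0.12 (SE) (adjusted p 0.022), and the homeobox gene Cdx1 0.66 ± 0.16 (SE) (adjusted p 0.0476), whose call held in 7 of 17 alternatives. The only Cdx1 probe was bright, at 2.87, 2.82 and 2.54 with AACO and 1.82, 2.25 and 2.18 in controls. Whether it reads Cdx1 alone was not tested. Of the 14 genes, 3 still passed without AACO replicate 1 (Bcl9, Celsr3, Cxxc4) and 1 without AACO replicate 2 (Bcl9). Leaving out a control array kept 8 (replicate 1), 5 (replicate 2) or 6 (replicate 3) of the 14, and all 14 passed without AACO replicate 3.

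**Figure D5:**
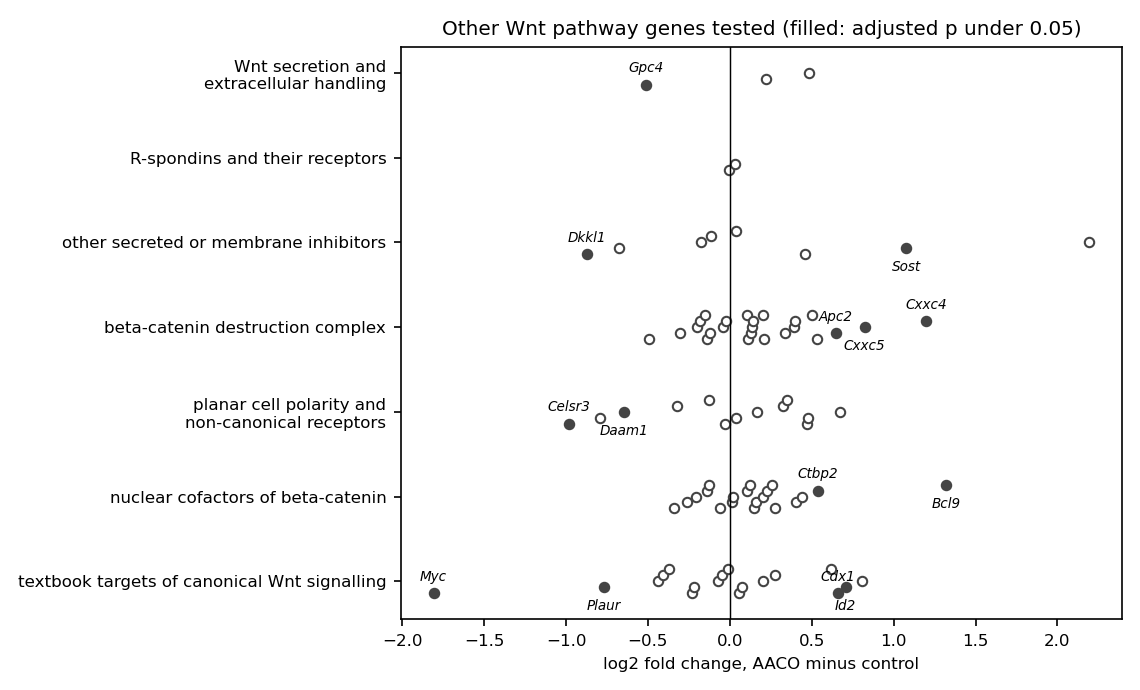
Log2 fold change (AACO minus control, limma, 3 arrays per group) of the 88 tested genes of the other Wnt pathway lists, 1 point per gene. Filled and named points passed an adjusted p of 0.05. Bcl9 and Cxxc4 lie farthest right among the filled points and Myc farthest left, and the unfilled point at 2.19 is Sostdc1.

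Levels of other cell types' markers differed between the same groups. Macrophage markers fell for 7 of 8, with Mrc1, a receptor of resident macrophages, at −6.35, −5.65 and −5.80 with AACO and −3.82, −3.44 and −3.20 in controls. Csf1r, the marker that did not fall, had 0.04 ± 0.17 (SE). The list's summed level was 6.35 to 8.03 with AACO against 14.0 to 19.0 in controls. Fibroblast markers had 0 of 8 past the threshold (1 at an unadjusted p under 0.05) and sums of 40.6 to 58.5 against 46.4 to 67.2. Endothelial markers had 0 of 8 (4 unadjusted) and 20.9 to 22.8 against 24.2 to 26.3, and smooth muscle and pericyte markers 0 of 8 (6 unadjusted) and 16.0 to 19.7 against 14.0 to 15.0. Of those 6, Rgs5 was lower with AACO (−0.34 ± 0.13 (SE)) and the rest were higher. Epicardial markers had 0 of 4 tested (0 unadjusted) and 0.462 to 0.544 against 0.564 to 0.612, with Upk3b and Lrrn4 above background nowhere. Ventricular markers had 2 of 4 risen, the transcription factors Irx4 (0.998 ± 0.20 (SE), adjusted p 0.0327) and Hey2 (1.23 ± 0.19 (SE), adjusted p 0.0174), while Myl2, the ventricular myosin light chain, had −0.13 ± 0.12 (SE), and the list summed to 276 to 311 against 243 to 333. Adipocyte markers had 1 of 2 tested fallen, Fabp4 (−0.66 ± 0.16 (SE), adjusted p 0.0488). Adipoq, the other one tested, had 1.18 ± 1.23 (SE) with overlapping groups (adjusted p 0.548). Plin1 was above background nowhere, and the list's sums were 5.54 to 8.19 against 10.3 to 11.6. Those sums came almost wholly from Fabp4, so they say little about the other adipocyte markers. Whether the fall of Fabp4 was one of fat cells was not tested. Of T and B cell markers 1 of 3 tested fell, Cd4 (−1.05 ± 0.17 (SE), adjusted p 0.0192). Cd3g had 0.22 ± 0.52 (SE) and Cd8a, well above background on AACO arrays only, 0.52 ± 0.38 (SE), and neither passed. Cd3e and Cd79a were above background nowhere, and the sums were 0.109 to 0.126 against 0.0784 to 0.204. Nodal markers had 0 of 2 tested (0 unadjusted) and sums of 0.559 to 1.45 against 0.539 to 0.898. Csf1r, Rgs5, Irx4, Hey2, Fabp4, Adipoq, Cd4, Cd3g and Cd8a are named after their values were seen. All 8 cardiomyocyte markers were detected and 0 of 8 differed (0 unadjusted), which fits the labelled tissue. The part of macrophages or any other cell type in the changes of Fzd7, Fzd8, Lrp5 and Sfrp5 was not tested.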

How the data were processed

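Per the labels, 0.2 ug of RNA from each of the 6 heart samples was labelled with Cy3 and hybridised to its own Agilent rat array. The submitters' processing notes name Agilent Feature Extraction 10.7.1.1. Per the file headers, the deposited spot intensity is the processed signal, already background-corrected. The deposited series matrix holds log2 values whose normalization is not given in the sources used here. It served as an alternative.

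Control spots and outlier spots were left out. The log2 signals were averaged per probe and set against the array's 75th percentile. Of 30367 probes, 20112 were well above background on at least 3 arrays. The brightest probe stood for a gene, which left 17536 genes. The groups were compared with limma 3.58.1 in R 4.3.3 (lmFit and eBayes; two-sided p, adjusted by Benjamini-Hochberg over every gene tested; threshold 0.05). A gene is said to have risen or fallen only past that threshold. Where no array of a group was well above background, values below the array's dimmest signal that was were raised to it. The fold from these is a bound only where the other group was above background on every array. The scripts were tested on simulated data. With 3 arrays per group, their number limits the precision.

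Members that differed are given in full, with the 2 of smallest p in roles without one. Pathway genes that differed are named, with the 2 of smallest p in lists without one. The members, lists and rules were chosen with earlier results of these data known. Alternatives covered scaling, background correction, the deposited log2 table, the filter, the probes of a gene, the variance model, an atrial covariate and each array left out. A further marker list is not reported here.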

Additional observations from a re-analysis of the deposited data

How the results depend on the processing

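Of the 4 members that differed, Sfrp5 and Fzd7 and Fzd8 each passed in 15 of 17 alternatives and Lrp5 in 9. Without scaling between arrays, 14 members differed (13 higher, 1 lower), 32 other pathway genes and 5725 genes of the array (5493 higher, 232 lower), where the median of all genes was 0.52, and Fzd7 lost its call at −0.47. With the atrial covariate (mean level of Myl7 and Sln), 0 members, 0 other pathway genes (17 at an unadjusted p under 0.05) and 0 genes of the array differed. Leaving out each array in turn gave 2 to 4 members, 1 to 19 other pathway genes and 253 to 2187 genes of the array, against 4, 14 and 1958. The lowest counts came without AACO replicate 2 and the highest without AACO replicate 3. The split over the array moved from 1110 higher and 848 lower to 780 and 2017 with normexp (median of all genes −0.10), 783 and 1408 with no filter, and 875 and 1041 with the percentile over averaged probes, an alternative chosen after seeing the data.

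Signs turned for Sfrp5 with the mean of its probes (0.61), Sfrp2 with the covariate (−1.33), and Wnt5a (−0.0093), Axin2 (−0.058), Sost (−0.25) and Rspo1 (−0.32) with normexp. Rspo1 also turned with quantile scaling (−0.0015), median scaling (−0.0058) and the percentile over probes (−0.035), and Lgr4 without scaling (0.47). Among the other pathway genes that differed, Apc2 and Cdx1 held least often, both lost with quantile scaling, the deposited log2 table, the percentile over probes and no filter. Arrays left out moved Rspo1 from −0.091 to 0.23 and Lgr4 from −0.077 to 0.045. The cause of these changes was not tested. No paired analysis was possible because the numbers in the sample titles differ between the groups. The 17 members below the filter were not tested, and any fold given for them is untested.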
